A study of Sus scrofa with 12 samples.

Results

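Heat shock proteins and their J-domain co-chaperones were examined in Semimembranosus muscle of heavy pigs, with DNAJB1 set beside the rest of the family. The members are the genes of the count table whose pig gene name begins with DNAJA, DNAJB, DNAJC, HSPA, HSPB, HSPD, HSPE, HSPH or HSP90, together with BAG3 and HSF1, and no expression value was used to choose them. This gave 64 of the 25880 genes listed, with 4 DNAJA, 10 DNAJB, 25 DNAJC, 10 HSPA, 7 HSPB, 3 HSP90 and 3 HSPD, HSPE or HSPH names. The name rule also took HSPBP1 and HSPBAP1, which bind heat shock proteins but are not chaperones of these classes. Of the 64 members, 60 passed the filter on low counts. The row named HSP90AA1, the inducible cytosolic HSP90, held 0 counts in every pig, as did HSPB9 and DNAJC22. DNAJC5B held 9 counts in pig 6 and 0 elsewhere. RefSeq places HSP90AA1 outside the assembled chromosomes. Whether its 0 counts reflect the muscle or the annotation and counting was not tested.

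Samples came from 12 Italian Large White pigs kept in 1 environment on 1 diet, 6 with high intramuscular fat (IMF) content, pigs 1 to 6, and 6 with low IMF content, pigs 7 to 12. The high IMF pigs were 234 to 244 days old and the low IMF pigs 229 to 249 days old, and each group held 3 gilts and 3 barrows by the labels. The groups are extremes of fat content within 1 breed, taken at a commercial slaughterhouse, and no treatment was given. Libraries were sequenced in pairs per lane and the pigs were slaughtered over several days, and since the labels do not say which pigs shared a lane or a day, effects of either were not tested. A pig had between 131048805 and 178013997 counts. Counts on the Y chromosome genes EIF1AY and KDM5D went against the labelled sex of 6 of the 12 pigs, 2 with high and 4 with low IMF, so that an exchange of samples cannot be told apart from a wrong sex label. Each comparison of the groups carries this limit. Of 12 defining genes of skeletal muscle, 6 carried a name, and all of these were detected, at a summed 32204 to 61785 CPM (counts scaled to equal library totals) over the 12 pigs. In whole muscle, fewer cells of a type and less RNA per cell cannot be told apart.

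Chaperones of the HSP70 class bind and release unfolded proteins in a cycle driven by ATP. J-domain proteins (HSP40, the DNAJ genes) deliver the client and start ATP hydrolysis, and HSP110 proteins and BAG-domain proteins exchange the nucleotide so that the client is let go. HSP90 finishes the folding of signalling proteins and receptors, small heat shock proteins hold unfolded proteins without ATP, and the factor HSF1 drives many of these genes through heat shock elements in their promoters. Muscle carries large amounts of them, since its filaments are under mechanical and thermal load.

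Heat shock elements are runs of the unit GAA alternating with its reverse complement TTC. They are shown here as a description of the members, and whether they go with the expression below was not tested. The windows searched reached from 250 bases before to 50 bases after the start of the RefSeq gene on Sscrofa11.1. An element of 3 units, written GAA, NN, TTC, NN, GAA or TTC, NN, GAA, NN, TTC with N for any base, also holds the shorter one and was found in 6 of 62 members with a window, 9.68%, against 0.378% of 19556 protein-coding genes. An element of 2 units, GAA, NN, TTC or TTC, NN, GAA, was found in 17 of the 62 members, 27.4%, against 12.3%. Both searches cover both strands, since each pair of patterns holds its own reverse complement. The members with the longer element were HSPA8, HSP90AB1, HSPD1, DNAJA1, DNAJB6 and DNAJB14, and CHORDC1, an HSP90 co-chaperone outside the rule, held 3 overlapping ones. The windows of DNAJB1 and HSPH1 held the shorter element alone. Only exact letters were counted, so a longer element with a changed letter in a unit was left out, also in these genes. Capitals mark the element in each sequence, written from 5′ to 3′ on the strand of the gene, and the DNAJA1 element lies past the gene start and is not shown. A match describes these letters in this window and is not a site shown to be bound.
HSPA8, first element, chr9:49986960-49986992, minus strand: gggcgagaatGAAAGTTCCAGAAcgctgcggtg
HSPA8, second element, chr9:49986793-49986825, minus strand: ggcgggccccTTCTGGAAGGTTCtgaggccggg
HSP90AB1, chr7:39237093-39237125, plus strand: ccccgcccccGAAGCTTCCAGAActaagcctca
HSPD1, chr15:101373706-101373738, minus strand: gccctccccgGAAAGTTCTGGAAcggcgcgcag
DNAJB6, chr18:1499955-1499987, minus strand: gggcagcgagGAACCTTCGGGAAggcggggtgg
DNAJB14, chr8:120567217-120567249, plus strand: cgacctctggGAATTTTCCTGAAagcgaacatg
CHORDC1, chr9:23208715-23208757, minus strand: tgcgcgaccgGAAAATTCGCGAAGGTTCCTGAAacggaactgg
DNAJB1, at the gene start, chr2:64761661-64761688, plus strand: gggcggggcgGAAGGTTCtggagggggc
DNAJB1, after the gene start, chr2:64761691-64761718, plus strand: gcgggctctgGAAGCTTCcgccggacgg
HSPH1, at the gene start, chr11:7759507-7759534, minus strand: ggtagcatctTTCGAGAAggctcgagaa

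Levels of different genes were compared as CPM per kilobase of the longest RefSeq transcript, which was found for 59 of the 60 tested members. These transcripts ran from 568 bases for HSPE1 to 10982 for DNAJA2. A transcript listed without part of its length raises this level. Whether short ones such as that of HSPB1, at 624 bases, are complete was not tested, which limits the ranking. HSPA8, the constitutive cytosolic HSP70, had the highest level at 761, with 824 ± 289 (SD, n = 6) in high and 699 ± 140.4 (SD, n = 6) in low IMF pigs. It alone took 26.7 to 36.8% of the normalized counts of all tested members in a pig. Next on the per-kilobase scale came the small heat shock proteins HSPB1 at 419 and HSPB8 at 273, the mitochondrial co-chaperonin HSPE1 at 184 and the constitutive cytosolic HSP90, HSP90AB1, at 137. HSPH1, an HSP110 exchange factor, followed at 69.4, DNAJA1 at 63.2, DNAJB4 at 59.9, DNAJB1 at 57.2 and HSPA5, the HSP70 of the endoplasmic reticulum, at 56.7.

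DNAJB1, the J-domain partner that starts HSP70 disaggregation of proteins, thus stood ninth among the 59 members on the per-kilobase scale over all pigs. Its level there was 86.1 ± 45.2 (SD, n = 6) for high IMF pigs and 28.4 ± 10.1 (SD, n = 6) for low IMF pigs. Between the mean levels of its neighbours HSPH1, DNAJA1, DNAJB4 and HSPA5 the distances were smaller than the spread between pigs. The median member had a level of 7.73, and DNAJB13, a J-domain protein of sperm flagella, the lowest at 0.021. Together the members took 0.38% of all counts in pig 2 and 0.785% in pig 6. Of the 60 tested members 11 had their highest normalized count in pig 6 and 17 their lowest in pig 2.

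**Figure D1:**
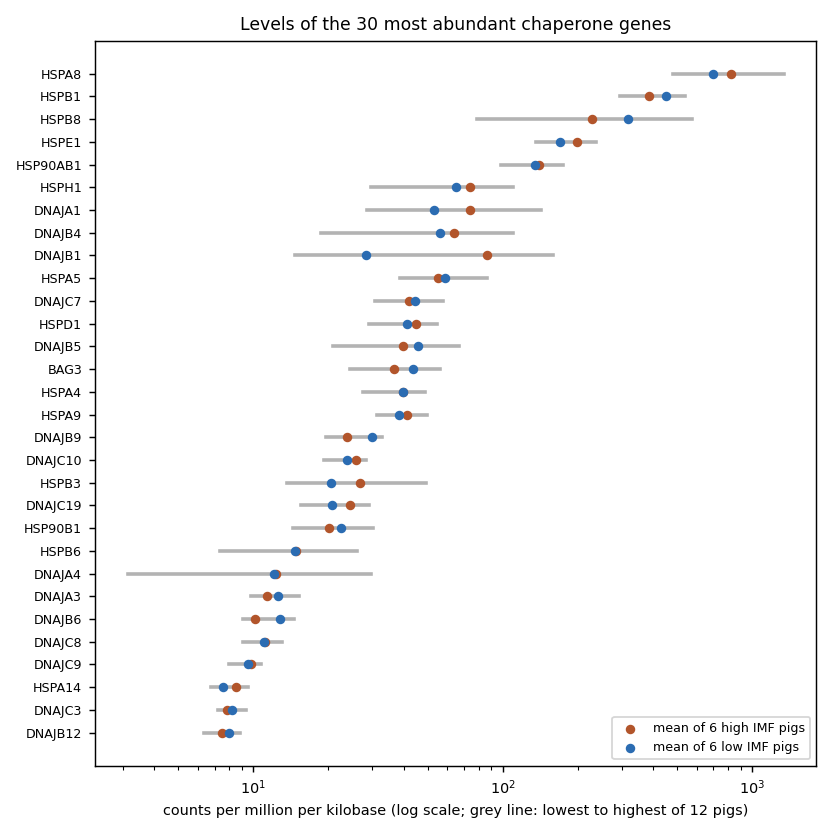
Levels of the 30 most abundant members in CPM per kilobase on a log axis. Points are the means of the 6 high and the 6 low IMF pigs and grey lines run from the lowest to the highest of the 12 pigs. The 2 points lie apart for DNAJB1, at 86.1 and 28.4, and lie close together for HSPH1, at 74.0 and 64.8.

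DNAJB1 (ENSSSCG00000013784, chr2:64761672-64764482, plus strand, Sscrofa11.1) was higher in the high IMF group, a difference that the study had already singled out and that is therefore described here only as the base for the rest of the family. Per pig, TMM-normalized counts of DNAJB1 were 30688, 9460.2, 7349, 22887, 15327 and 14145 in high IMF pigs 1 to 6 and 4460.1, 7911, 2832, 7045, 4166 and 6483 in low IMF pigs 7 to 12. Pigs 1 and 4 stood highest and pig 9 lowest, and the groups overlapped, since high IMF pig 3 lay under low IMF pig 8. The log2 fold change (log2FC), low over high IMF, was -1.60 ± 0.34 (SE), and its Benjamini-Hochberg adjusted p over 14262 genes was 0.205 in the quasi-likelihood test of edgeR. In the Wald test of DESeq2 the adjusted p was 0.00119, so whether DNAJB1 passed the threshold of 0.05 depended on the test. The study, which used DESeq2, also measured DNAJB1 by quantitative PCR in RNA of the same pigs. It reports similar patterns by both methods for the genes so measured. An exact two-sided permutation test of log2 CPM gave p = 0.00433, and 0.00216 is the smallest value that 6 against 6 pigs allow. Without pig 1 the log2FC was -1.34, and without pig 3 it was -1.76. In the 4 high and 2 low IMF pigs whose Y chromosome counts match the labelled sex it was -1.85 ± 0.49 (SE), an alternative added after seeing the data.

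No member was called by edgeR at an adjusted p of 0.05 together with a log2FC beyond 0.58 in size, against 0% of all genes tested. At an unadjusted p of 0.05 there were 7 of 60 members, or 11.7%, against 10.4% over all genes. Of these 7, 3 were higher in high IMF pigs, beside 5.04% of all genes in that direction, and 4 were higher in low IMF pigs, beside 5.38%. The members' share therefore lay near that of all genes. DESeq2's Wald test called 1 member, DNAJB1, against 0.458% of all genes, and at its adjusted p alone 2 members, DNAJB1 and DNAJB6, against 0.723%. The median log2FC was -0.0017 over the 60 members and -0.0083 over all genes, and 30 members lay on each side of 0. In 0 members were the groups free of overlap, against 0.659% of all genes. Apart from DNAJB1, HSPA13 was the single member whose log2FC reached 0.58 in size, where 8.45% of all genes did.

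**Figure D2:**
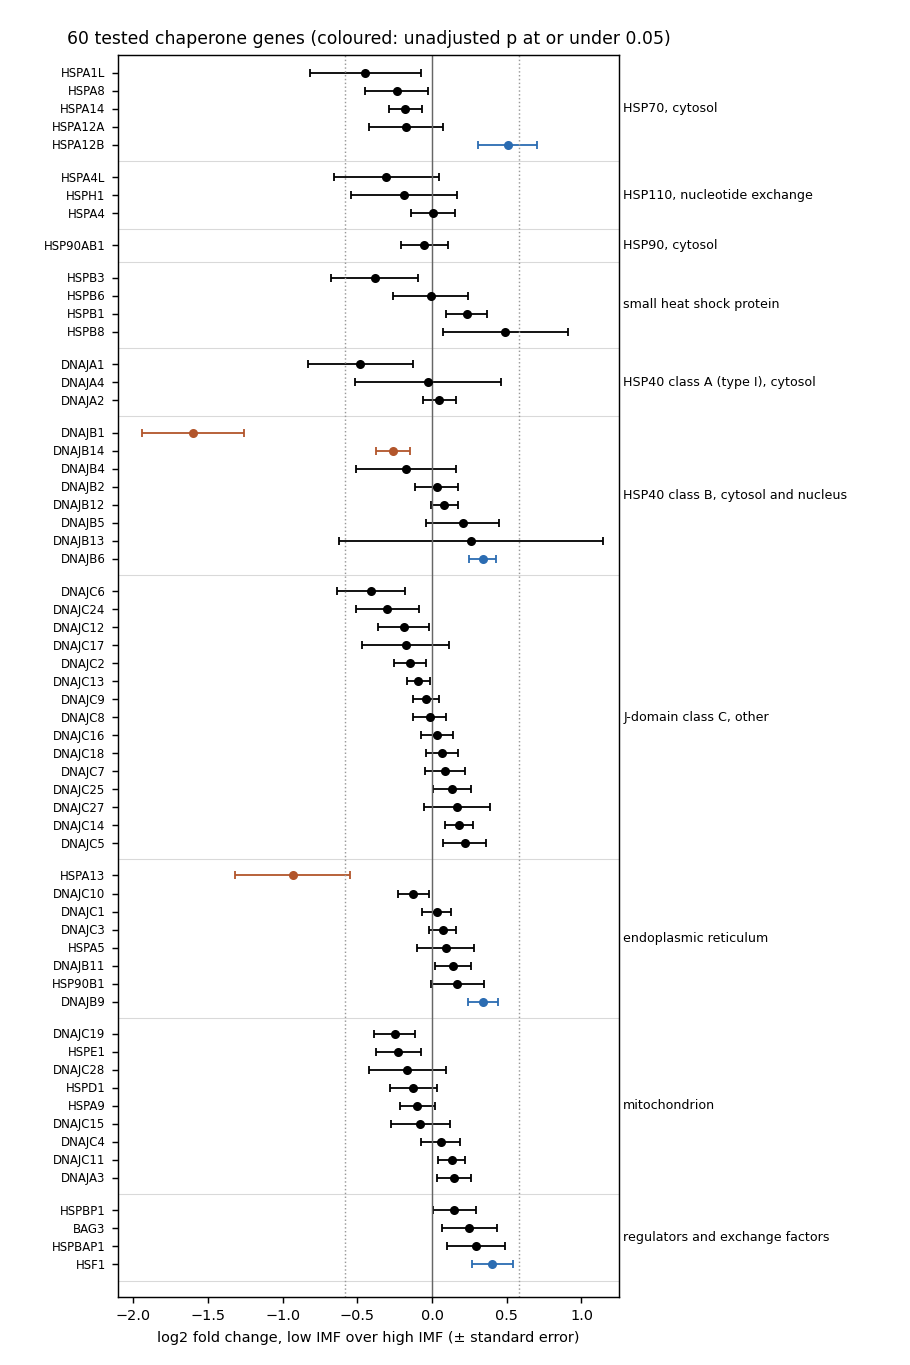
Log2 fold change of the 60 tested members, low over high IMF, with its standard error, grouped by role, and dotted lines at 0.58 in each direction. Coloured points had an unadjusted p at or under 0.05. DNAJB1 at -1.60 lies far to the left of its class, whose other members lie between -0.26 and 0.34.

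Among the cytosolic HSP70 genes, the partners that J-domain proteins act on, HSPA8 had normalized counts of 160859 to 445302, median 261523, in high and 173145 to 296095, median 219676, in low IMF pigs. The range of the low IMF pigs lay within that of the high IMF pigs, and pig 6 stood alone at the top. The log2FC of HSPA8 was -0.24 ± 0.21 (SE), and without pig 6 it was -0.044. HSPA1L is an HSP70 best known from testis. Its RefSeq span (chr7:23909960-23938678, minus strand) encloses that of HSP70.2 (chr7:23925929-23927854, plus strand), the inducible HSP70 of the pig, so without known use of strand its counts may hold reads of HSP70.2. HSPA1L had counts of 280.2 to 1088, median 731, in high and 228 to 791, median 531, in low IMF pigs. Its log2FC of -0.45 ± 0.37 (SE) stayed within the spread between pigs. HSPA14, an HSP70 that works at the ribosome, was 1791 to 2492, median 2223, in high and 1768 to 2428, median 1824, in low IMF pigs, with a log2FC of -0.18 ± 0.11 (SE).

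HSPA12B, a distant HSP70 relative known from endothelium, showed the opposite order. Its normalized counts were 709 to 1784, median 1172, in high and 1457 to 1967, median 1666, in low IMF pigs, so the low IMF pigs lay in the upper part of a shared range. The log2FC was 0.51 ± 0.19 (SE), with an adjusted p of 0.440 by edgeR's test and an exact permutation p of 0.0238. Of the 4 endothelial markers with a name, 1 reached an unadjusted p of 0.05, higher in low IMF pigs, where 5.38% of all genes stood. With so few markers, this count says little, and none was at 0 in all pigs. Their summed level was 92.0 to 123 CPM in high and 95.3 to 159 CPM in low IMF pigs, and their part in the HSPA12B difference was not tested. HSP70.2, the inducible HSP70, falls outside the name rule. Chosen after its values were seen, it had 42063 to 127201, median 90914, in high and 38988 to 134820.0, median 87538, in low IMF pigs and a log2FC of -0.018 ± 0.30 (SE), so the groups lay over each other.

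The HSP110 exchange factors and HSP90 differed by less than their spread. HSPH1 had normalized counts of 17649 to 58541, median 39013, in high and 15770.1 to 52628, median 36659, in low IMF pigs. Pigs 2, 7 and 12 stood lowest and pigs 4, 6 and 8 highest, so each end of the range held pigs of both groups. Its log2FC was -0.19 ± 0.35 (SE), that of the related HSPA4L -0.31 ± 0.35 (SE) and that of HSPA4 0.0062 ± 0.15 (SE). With 1 pig left out, HSPH1 ran from -0.34 without pig 2 to -0.033 without pig 12, and HSPA4L from -0.52 without pig 11 to -0.021 without pig 4. HSP90AB1 ranged over 41781 to 73357, median 58020.5, in high and 41508 to 68779.5, median 55274, in low IMF pigs, with a log2FC of -0.051 ± 0.16 (SE) that turned to 0.022 without pig 6 and to 0.033 without pig 12.

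The J-domain proteins of classes A and B, the closest relatives of DNAJB1, did not share its difference in size. DNAJA1, the main cytosolic class A protein, had counts of 11450.5 to 57001, median 26741, in high and 12042 to 32658, median 20867, in low IMF pigs and a log2FC of -0.48 ± 0.35 (SE), which was -0.18 without pig 6. DNAJB4, a muscle-rich relative of DNAJB1, had 41292 to 116849, median 60973, in high and 19883 to 95456, median 61138, in low IMF pigs. Its medians were nearly equal and its log2FC of -0.17 ± 0.34 (SE) turned to 0.051 without pig 6. DNAJA4 varied widely within a group, from 1375 in pig 2 to 13038 in pig 5 of the same group, with 12550.4 in low IMF pig 11. Its log2FC was -0.029 ± 0.49 (SE), and its direction depended on the pigs and the test used. DNAJB5 had a log2FC of 0.20 ± 0.24 (SE), DNAJB2 of 0.03 ± 0.15 (SE) and DNAJA2 of 0.049 ± 0.11 (SE).

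DNAJB6, which keeps aggregation-prone proteins soluble and sits at the Z-disc of muscle, went the other way from DNAJB1. It had normalized counts of 6416 to 7790.1, median 7088, in high and 7706 to 10245, median 9231, in low IMF pigs, and the groups overlapped by 1 pig on each side. The log2FC was 0.34 ± 0.089 (SE), with an adjusted p of 0.353 by edgeR's test and an exact permutation p of 0.00433. By the Wald test of DESeq2 its adjusted p was 0.0367. DNAJB14 and DNAJB12 are anchored in the membrane of the endoplasmic reticulum with their J domain in the cytosol. DNAJB14 had 1217 to 1874, median 1638, in high and 1215 to 1505, median 1348, in low IMF pigs, and its log2FC was -0.26 ± 0.12 (SE), with an adjusted p of 0.463 by edgeR's test and an exact permutation p of 0.0541. The log2FC of DNAJB12 was 0.083 ± 0.092 (SE). DNAJB13 held 0 counts in at least 1 pig of each group and at most 47.7 normalized counts, so no difference could be read at this depth.

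**Figure D3:**
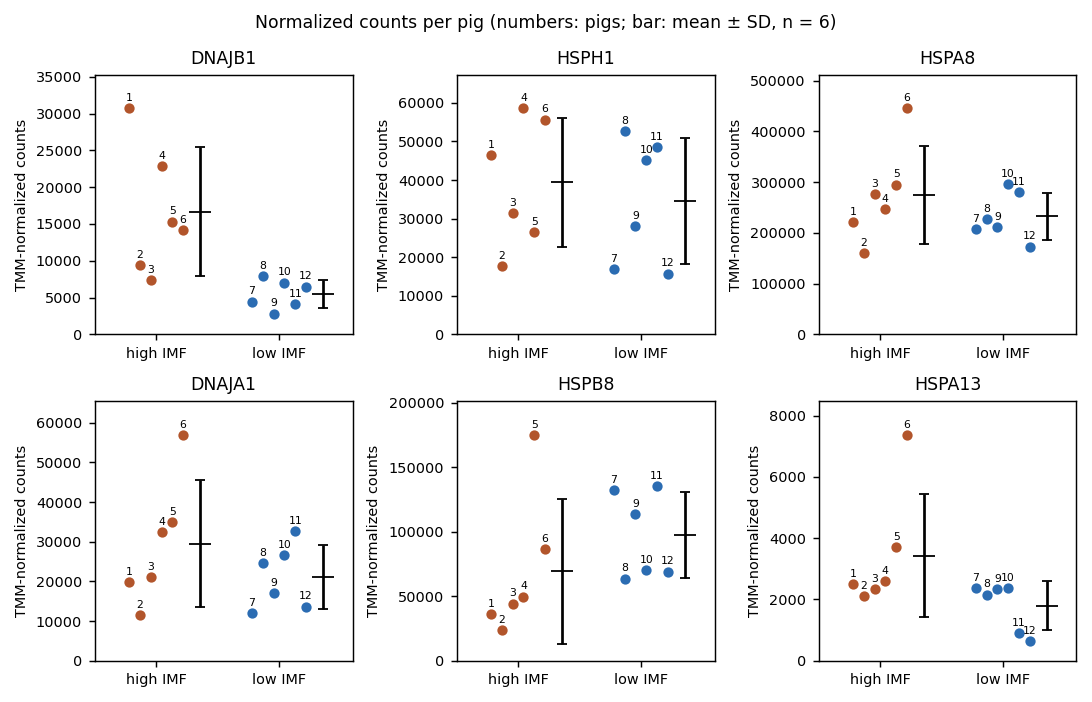
TMM-normalized counts of 6 members in each pig, with the mean and SD of each group of 6 to the right of its points and pig numbers above the points. DNAJB1 separates the groups except for pigs 3 and 8, whereas HSPH1, HSPA8 and DNAJA1 spread widely within each group. Pig 6 is highest for HSPA8, DNAJA1 and HSPA13, and pig 5 for HSPB8.

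Small heat shock proteins hold unfolded filament proteins in muscle. HSPB8, which hands filamin and other clients to BAG3 for selective autophagy, had normalized counts of 23972 to 175305, median 47065, in high and 63653 to 135478, median 91967, in low IMF pigs. All but 2 of the high IMF pigs, 5 and 6, stood under every low IMF pig, and pig 5 was the highest of all. The log2FC of HSPB8 was 0.49 ± 0.42 (SE) with an exact permutation p of 0.139, and without pig 5 it was 1.02 with an adjusted p of 0.506 by edgeR's test, and without pig 2 it was 0.31, so single pigs decided its size. BAG3, the exchange factor of that pathway, had 10315 to 23856, median 14356, in high and 13327 to 23629, median 18518, in low IMF pigs and a log2FC of 0.25 ± 0.19 (SE), which was 0.41 without pig 6 and 0.16 without pig 3. HSPB1, which binds actin and filamin, had 27220.4 to 43999, median 34414, in high and 32128 to 49531, median 43358, in low IMF pigs and a log2FC of 0.23 ± 0.14 (SE). HSPB3 had a log2FC of -0.38 ± 0.29 (SE) and HSPB6, the vascular and muscle form, of -0.0095 ± 0.25 (SE), both within the spread between pigs. That of HSPB3 was -0.12 without pig 6 and -0.60 without pig 11.

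HSF1, the factor that drives the heat shock response, was among the members at an unadjusted p under 0.05. It had normalized counts of 770.0 to 1167, median 928, in high and 964 to 1441, median 1332, in low IMF pigs, and 4 of the 6 low IMF pigs stood above every high IMF pig. Its log2FC was 0.40 ± 0.14 (SE), with an adjusted p of 0.427 by edgeR's test and an exact permutation p of 0.0195. HSF1 and DNAJB1 therefore had opposite signs. HSPBP1, a nucleotide exchange factor of HSP70, had a log2FC of 0.15 ± 0.14 (SE) and HSPBAP1, a partner of HSPB1, of 0.29 ± 0.19 (SE).

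In the endoplasmic reticulum, 1 of 8 members was higher in each group at an unadjusted p of 0.05, beside 5.04% of all genes higher in high and 5.38% higher in low IMF pigs. DNAJB9, which assists HSPA5 and in turn restrains the stress sensor IRE1, had normalized counts of 7273 to 10772, median 8755, in high and 10134 to 12228, median 11008, in low IMF pigs. The groups met in the middle of the range, and the log2FC was 0.34 ± 0.10 (SE), with an adjusted p of 0.419 by edgeR's test and an exact permutation p of 0.00866. HSPA13, an HSP70 relative of the endoplasmic reticulum and microsomes, had 2105 to 7376, median 2543, in high and 631 to 2376, median 2249, in low IMF pigs. Pig 6 lay far above and pigs 11 and 12, at 915 and 631, far below the other pigs, which kept between 2105 and 3712. The log2FC of HSPA13 was -0.93 ± 0.38 (SE) with an exact permutation p of 0.0476 and an adjusted p of 0.441 by edgeR's test, and -0.56 without pig 6. HSPA5 had a log2FC of 0.091 ± 0.19 (SE), its HSP90 partner HSP90B1 of 0.17 ± 0.18 (SE), DNAJB11 of 0.14 ± 0.12 (SE), DNAJC3 of 0.07 ± 0.093 (SE) and the disulphide reductase DNAJC10 of -0.13 ± 0.10 (SE).

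In the mitochondrion, 0 of 9 members reached an unadjusted p of 0.05, beside 10.4% of all genes. The chaperonin HSPD1 had 8592 to 16122, median 13783, in high and 9191 to 14340.5, median 12386, in low IMF pigs, with a log2FC of -0.12 ± 0.15 (SE). Its lid HSPE1 had a log2FC of -0.23 ± 0.15 (SE), the import motor HSP70 HSPA9 of -0.10 ± 0.12 (SE) and its J-domain partner DNAJA3 of 0.15 ± 0.11 (SE). DNAJC19, a J-domain protein of the import motor, had 3023 to 4457, median 3857, in high and 2385 to 3926, median 2988, in low IMF pigs and a log2FC of -0.25 ± 0.14 (SE). The other class C proteins, 15 genes with roles from endocytosis to splicing, also held 0 at an unadjusted p of 0.05, beside the same 10.4%. With so few genes, a count of 0 lies near that share. The ends of their range were DNAJC6, auxilin, which uncoats clathrin vesicles, at -0.41 ± 0.23 (SE), and DNAJC5, a protein of secretory vesicles, at 0.22 ± 0.14 (SE). DNAJC14, a membrane protein that assists receptor transport, had a log2FC of 0.18 ± 0.092 (SE).

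Other chaperones and co-chaperones, named from a list that the rule does not hold, showed no larger differences. Of 52 genes listed, 46 carried a name in the table and 45 were tested. At an unadjusted p of 0.05 there were 6 of 45, or 13.3%, all higher in low IMF pigs, where 5.38% of all genes stood, and 0 at an adjusted p of 0.05 by edgeR's quasi-likelihood test. They were SGTA, a co-chaperone of tail-anchored proteins, at 0.24 ± 0.087 (SE), its partner BAG6 at 0.33 ± 0.13 (SE), the lectin chaperone CALR at 0.32 ± 0.13 (SE), the disulphide isomerase PDIA6 at 0.26 ± 0.11 (SE), the mitochondrial exchange factor GRPEL2 at 0.37 ± 0.16 (SE) and the kinase adaptor of HSP90, CDC37, at 0.30 ± 0.13 (SE). The median log2FC of the 45 was 0.057. CRYAB, a small heat shock protein of muscle outside the name rule, had 115324 to 282018, median 165785, in high and 63899 to 234497, median 151611, in low IMF pigs and a log2FC of -0.28 ± 0.31 (SE).

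Immediate early response genes were looked at beside DNAJB1. Of 7 such genes tested, 3 were higher in high IMF pigs at an unadjusted p of 0.05, where 5.04% of all genes were, and none in low IMF pigs, and JUNB was at 0 in all pigs. Their summed level was 824 to 1900 CPM, median 1326, in high and 612 to 1287 CPM, median 768, in low IMF pigs, and their part in the DNAJB1 difference was not tested. Adipocyte markers summed to 57.8 to 135 CPM in high and 34.4 to 148 CPM in low IMF pigs, and the ranges overlapped. Of these 7 markers 0 reached an unadjusted p of 0.05, beside 10.4% of all genes, and none was at 0 in all pigs.

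How far DNAJB1 followed its family from pig to pig was measured by correlation. Pearson's r of log2 CPM was computed over 12 pigs between DNAJB1 and each of the other 14261 tested genes, with permutation tests of 100000 resamples. Of the 59 other members, 0 reached an r of 0.7, where 0.701% of all genes did, so the count lay near that of all genes. After the values were centred on the mean of each IMF group, 1 member did, where 0.491% of all genes did. This was HSPBAP1, with an r of 0.74 centred and 0.10 uncentred. Its r was 0.91 within the high and 0.51 within the low IMF pigs. Without pigs 1 and 4, the farthest from the median of DNAJB1, its uncentred r was -0.26. The median r with DNAJB1 was 0.11 over the members and 0.013 over all genes, and 0.15 and 0.013 after centring. No gene had an adjusted p under 0.05, and the lowest was 0.321, while 2 members and 5.52% of all genes had an unadjusted permutation p at or under 0.05.

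HSPA14 was the member most like DNAJB1, with an r of 0.58 (rho = 0.59, permutation p = 0.0526 and 0.046, adjusted p = 0.885 and 0.823) and an r of 0.46 without the pigs farthest from the median of DNAJB1, pigs 1 and 4. It ranked 433 among all genes. HSPA1L followed with an r of 0.53, DNAJB14 with 0.52, HSPA4L with 0.50 and DNAJC19 with 0.44. Without pigs 1 and 4 the r of HSPA1L was 0.20 and that of HSPA4L 0.17, and after centring that of DNAJB14 was 0.13 and that of DNAJC19 0.097. The r with HSPA8, the most abundant partner, was 0.22. At the other end lay DNAJB9 with an r of -0.70 (rho = -0.71, permutation p = 0.011 and 0.0118, adjusted p = 0.81 and 0.728), which became -0.54 without pigs 1 and 4 and -0.27 after centring on the groups. HSPA12B had an r of -0.59, DNAJB6 of -0.46, HSPB8 of -0.43 and DNAJB12 of -0.40. For DNAJB6 the sign turned to 0.48 after centring, so its negative r rested on the difference between the groups.

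The genes most like DNAJB1 over the 12 pigs were not members of the family. Among them were PARPBP with an r of 0.90, ENSSSCG00000039904 with 0.90, ENSSSCG00000035039 with 0.90, ENSSSCG00000031725 with 0.89, KCNE4 with 0.88, ADAMTS1, ID4 and ENSSSCG00000005007 with 0.87 and CTH with 0.86, with adjusted permutation p-values from 0.321 to 0.349. Centred on the groups, these genes had an r between 0.63 and 0.79. The study describes ENSSSCG00000039904, ENSSSCG00000035039 and ENSSSCG00000031725 as small nucleolar RNAs with the same skeleton structure, so they need not be separate matches. Their counts come from libraries of polyadenylated RNA, and how reads shared between such copies were counted is not known. ENSSSCG00000035039 had 174 to 502, median 382, in high and 34.9 to 139.7, median 75.6, in low IMF pigs.

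The ratio of DNAJB1 to each other gene was compared between the groups by an exact two-sided permutation test, adjusted over 14261 genes. For 55 of 59 members the ratio was higher in high IMF pigs at an adjusted p of 0.05, where 85.7% of all genes gave the same, and for 17 members every high IMF pig stood above every low IMF pig, where 17.6% of all genes did. The members' shares lay above those of all genes. Since the size of the shift is set largely by DNAJB1 itself, these counts are not read as a result about the family.

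HSPH1, taken as the reference gene after its values were seen, had an r of at least 0.7 with 10 of the 59 other members, where 1.21% of all genes reached it, and the same count of 10 was found after centring on the groups and by rank correlation. Without pig 6 the count was 6. Of all 1770 pairs among the 60 members, 67 had an r of at least 0.7. Few pairs thus reached it, and HSPH1 is not a typical member to set DNAJB1 against. HSPA4L had an r of 0.91 with HSPH1 (rho = 0.92, permutation p = 7e-05 for both, adjusted p = 0.228 and 0.321), and 0.90 without the pigs farthest from the median of HSPH1, pigs 7 and 12. HSP90AB1 had an r of 0.85, HSPA1L of 0.85, HSPA4 of 0.84, HSPD1 of 0.83 and DNAJA1 of 0.79. DNAJB4 with 0.74, HSP90B1 with 0.74, HSPA14 with 0.73 and HSPE1 with 0.70 completed the 10, which thus hold proteins of the mitochondrion (HSPD1 and HSPE1) and of the endoplasmic reticulum (HSP90B1), and HSPA8 lay just under with 0.65. Lower values among cytosolic members were those of DNAJB6 with an r of -0.32, DNAJB5 with 0.022 and DNAJA2 with 0.30. DNAJB1 had an r of 0.40 with HSPH1, which was 0.27 without pigs 7 and 12, 0.16 without pigs 1 and 4 and 0.43 after centring on the groups. No r with HSPH1 passed an adjusted p of 0.05 over all genes.

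Of all genes tested, CHORDC1 was the most like HSPH1, with an r of 0.92, and HSPA4L the second. Others among the closest 10 were CACYBP, a partner of ubiquitin ligases, with 0.88, AHSA1, the activator of HSP90, with 0.88, and the inducible HSP70.2 with 0.86. Of the 45 listed co-chaperones outside the rule, 7 reached an r of 0.7 with HSPH1 and 0 with DNAJB1. Among the 10 members at or over 0.7 with HSPH1 were 3 of the 6 whose window holds the element of 3 units. These were HSP90AB1, HSPD1 and DNAJA1, and CHORDC1 holds 3 such elements. The windows of DNAJB4, HSP90B1, HSPA14 and HSPE1, also among the 10, held neither element, nor did those of AHSA1, CACYBP and HSP70.2. However, the HSPD1 element lies between the starts of HSPD1 and HSPE1, before the HSPE1 window, which begins at chr15:101373769. The HSP70.2 window rests on 1 RefSeq transcript of 1926 bases. Whether its start is that of the full transcript, so that the window covers the promoter, was not tested. Of the other members with the longer element, HSPA8 had an r of 0.65 with HSPH1, DNAJB14 of 0.39 and DNAJB6 of -0.32. Whether the elements go with co-variation was not tested.

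**Figure D4:**
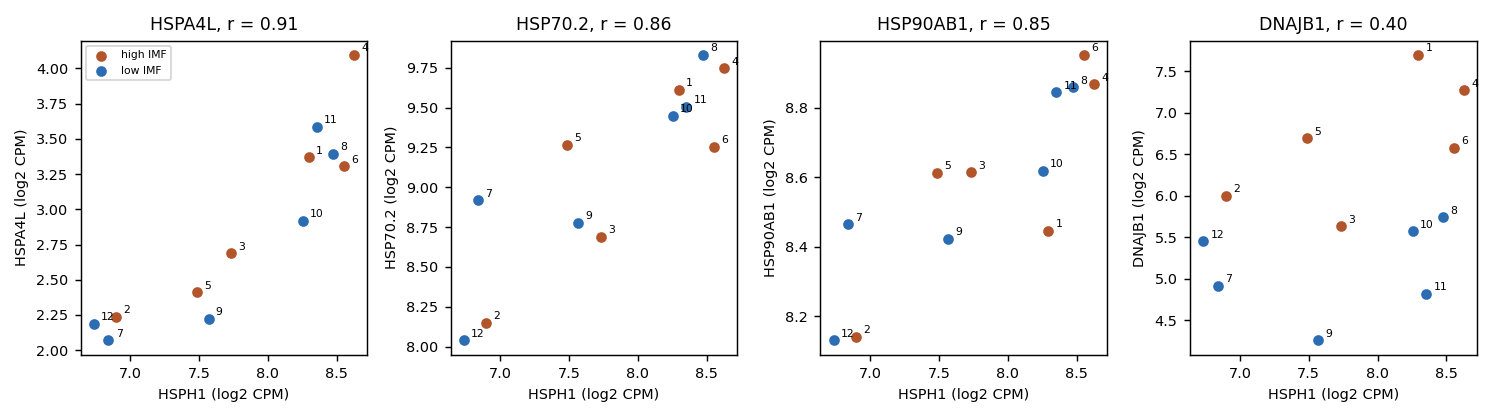
Log2 CPM of HSPA4L, HSP70.2, HSP90AB1 and DNAJB1 in each of the 12 pigs, plotted against that of HSPH1, with pig numbers beside the points. The first 3 rise with HSPH1 in both groups, at an r of 0.91, 0.86 and 0.85, while for DNAJB1 the r is 0.40 and the low IMF pigs 8, 10 and 11, high in HSPH1, stay under the high IMF pigs 1, 4 and 6.

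Over all 1770 pairs of the 60 members the median r was 0.14, and 67 pairs had an r of at least 0.7. Some of the closest pairs work in the same complex or compartment, and others do not. HSPA14 and DNAJC2, the HSP70 and the J-domain protein of the ribosome-associated complex, had an r of 0.92. HSP90B1 and HSPA5 of the endoplasmic reticulum had an r of 0.91, DNAJA1 and HSPA8 of 0.91, and BAG3 and HSPB1 of 0.85. The closest pair, HSP90AB1 and HSPD1, had an r of 0.93 although HSP90AB1 acts in the cytosol and HSPD1 in the mitochondrion. These r values share libraries and depth, and they describe 12 pigs.

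**Figure D5:**
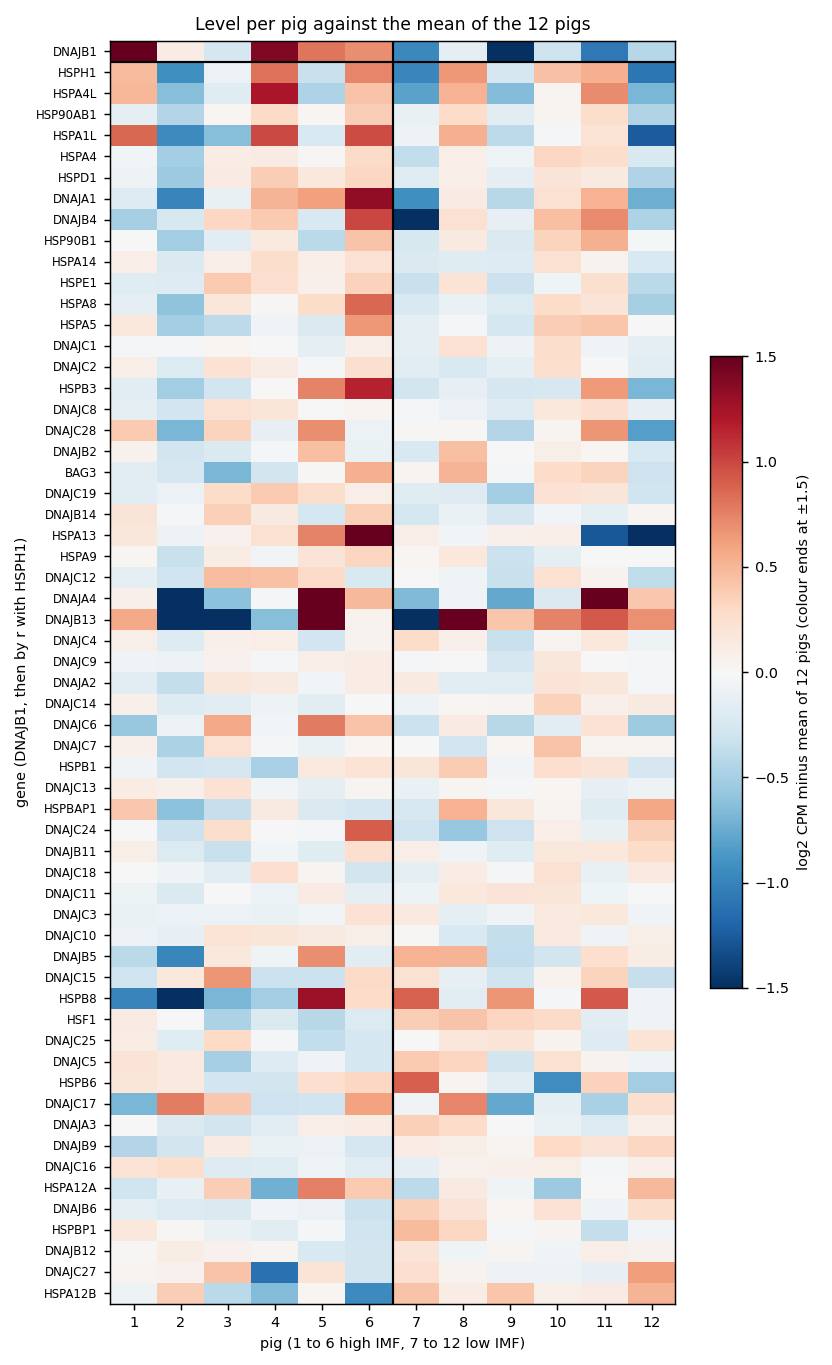
Log2 CPM of the 60 tested members in each pig, less the mean of the 12 pigs, with DNAJB1 in the top row and the others ordered by r with HSPH1. Pigs 2, 7 and 12 are mostly low and pigs 4, 6 and 11 mostly high over the upper rows, with both IMF groups at each end. Pigs 8 and 10 are high in part of these rows, while the DNAJB1 row divides mainly by group. The row of HSPA12B, at the bottom, had an r of -0.70 with HSPH1.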

How the data were processed

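RNA from the Semimembranosus muscle of 12 pigs was sequenced as stranded libraries of polyadenylated RNA with paired reads. The authors trimmed the reads with Trimmomatic, aligned them with HISAT2 to pig genome 11.1, ran StringTie on known transcripts and HTSeq for counting, and they deposited whole-number counts per Ensembl gene and pig, not normalized. The release of the annotation, whether strand was used in counting and how multi-mapping reads were handled were not given in the sources used here, so near-identical copies such as the HSP70 genes and overlapping genes are uncertain. Precision is set by the spread between pigs, since counting error is small at 131048805 counts and more per pig.

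Groups came from the labels, and pigs keep the number of their label. The counts of 2 pigs of a group differed by far more than sampling noise, with a chi-square of at least 191 per degree of freedom, so each pig is 1 sample. Members were found by gene name, and 14262 genes passed edgeR's filterByExpr. Values are counts scaled by TMM to the mean library (TMM-normalized counts), log2 CPM with a prior count of 2, or CPM per kilobase of the longest RefSeq transcript. The main test was edgeR's quasi-likelihood test with the group as the only term (edgeR 4.0.16, R 4.3.3), with Benjamini-Hochberg adjustment over all 14262 genes. Calls needed an adjusted p up to 0.05 and a fold change (log2FC, low IMF over high IMF) beyond 0.58 in either direction. Alternatives were limma-voom (limma 3.58.1), DESeq2 1.42.0 on every gene that had a count, other scalings and filters, labelled sex, age or Y chromosome counts as covariates, and each pig left out in turn. Exact permutation tests, two-sided, covered 924 arrangements, and correlations used 100000 resamples (Python 3.11.15, numpy 2.4.6, scipy 1.17.1). The tests were tested on simulated data first.

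Named genes are DNAJB1, members fixed by role, the 5 members with the smallest unadjusted p in each direction, the highest level per kilobase or the largest coefficient of variation, the 5 highest and 5 lowest in r with DNAJB1, the 10 genes most like DNAJB1, and listed co-chaperones at an unadjusted p of 0.05. Of the genes most like DNAJB1, 1 is not reported here. Other genes named were chosen after their values were seen. The members and lists were chosen with earlier results of these data known. Sequences and positions are from RefSeq on Sscrofa11.1, matched by symbol for 63 of the 64 members.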

Additional observations from a re-analysis of the deposited data

Results flagged for a closer look

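The TMM-normalized counts of 34 named members were searched for single pigs that stand apart from the rest of their group of 6, by Dixon's ratio of the gap to the range at its 95% critical value. This gave 68 groups, of which 5 were marked, and chance marks about 1 in 20 groups. DNAJA4, a class A J-domain protein, stood at 12550.4 in low IMF pig 11, where the other low IMF pigs had 2617 to 5868. HSPB3, a small heat shock protein of muscle, stood at 4791 in the same pig, against 1906 to 2828 in the others. HSPA13 reached 7376 in high IMF pig 6, where the other high IMF pigs had 2105 to 3712. DNAJC3, an inhibitor of the kinase PERK, reached 2333.5 in the same pig, against 1863 to 1941 in the others. DNAJB13 stood at 47.7 in high IMF pig 5, against 0 to 14.2 in the others.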

How the results depend on the processing

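No paired analysis was possible because the labels number the pigs from 1 to 12 without a number shared between the groups. Under DESeq2's Wald test 64 genes were called in place of 0, 1 member was called, and DNAJB1 had a log2FC of -1.60 with an adjusted p of 0.00119. The adjusted p of DNAJB1 over the other fits ran up to 0.998, the value in the 6 pigs whose Y chromosome counts match the labelled sex. Leaving out each pig in turn gave 0 to 1 genes called, 1 without pig 5 and 1 without pig 10, and a log2FC of DNAJB1 from -1.76 to -1.34. Members at an unadjusted p of 0.05 numbered 6 to 10 over the pigs left out. Centred on the groups, 1 member had an r of at least 0.7 with DNAJB1. The members at that r with HSPH1 numbered 6 to 11 over the pigs left out, with 6 without pig 6. Directions turned in 5 members. The log2FC of DNAJA4 was 0.083 with limma-voom, 0.095 with labelled sex as a covariate and -0.49 to 0.44 over the pigs left out. For HSPB6 it was 0.040 with age as a covariate and -0.25 to 0.13 over the pigs left out. Over the pigs left out it was -0.0073 to 1.32 for DNAJB13, -0.13 to 0.033 for HSP90AB1 and -0.36 to 0.051 for DNAJB4. The causes were not tested. DNAJB6 passed an adjusted p of 0.05 under DESeq2's Wald test, at 0.0367, with a log2FC short of 0.58. No alternative reversed DNAJB1. Low counts limit DNAJB13 and the members that failed the filter, and for HSP90AA1 a gap in annotation or counting cannot be told apart from absent expression.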
